A study of Homo sapiens with 12 samples.

Results

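The JUN family (JUN, JUNB and JUND), the related factor ATF3 and the small MAF genes MAFF and MAFK were examined in RNA-seq of HUDEP-2 cells after short activation of Kit. The genes were chosen by name, and all 6 were found among 54628 listed genes. HUDEP-2 is an immortalised line of erythroid progenitors from human cord blood that depends on Kit signalling, and it is kept in stem cell factor (SCF), erythropoietin, dexamethasone and doxycycline. The 12 libraries formed 4 groups of 3 replicates each: sgControl PBS, sgControl SCF, sgEGR1 PBS and sgEGR1 SCF. sgControl cells carried a scrambled guide. sgEGR1 cells carried a guide for CRISPR interference, in which a catalytically dead Cas9 fused to the KRAB repressor is brought to an element upstream of EGR1. The guides were delivered with lentivirus and transduced cells were sorted on GFP, so that each group is a sorted population in bulk. All 4 groups were deprived of growth factors for 5 h before 1 h of PBS alone or of SCF, the Kit ligand, at 50 ng/mL.

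JUN family proteins are basic leucine zipper factors that form AP-1 dimers with each other or with FOS proteins, and AP-1 is a classic nuclear target of growth factor signalling through MAP kinases. ATF3 is a stress-induced relative that pairs with JUN proteins and often represses its targets. Small MAF proteins lack an activation domain, and act in dimers with CNC partners such as NFE2, NFE2L2 or BACH1, which bind globin and haem genes in erythroid cells.

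Library totals ranged from 23.5 to 32.0 megacounts, and levels are given as CPM (counts per megacount of the library total, scaled by TMM factors). In sgEGR1 cells after PBS, EGR1 itself was at 2.04, 1.12 and 0.977 CPM, against 10.9, 5.99 and 7.45 CPM in sgControl cells. After SCF it was at 40.4, 57.4 and 204 CPM in sgEGR1 cells and 208, 239 and 171 CPM in sgControl cells, so the library labelled sgEGR1 SCF replicate 3 went against its label, and calls are also given with that library left out. Replicate 1 of each group stood apart: 26.6% of 15492 tested genes differed between replicate 1 and replicates 2 and 3 (edgeR adjusted p under 0.05). All 16 erythroid markers were expressed. Of the other cell types' markers, PF4, PPBP, GP9, MPO, ELANE, CD3E and MS4A1 had 0 counts in all 12 libraries. The megakaryocyte markers ITGA2B and ITGB3 were at group means of 18.9 to 24.1 CPM and 0.387 to 0.662 CPM. The epithelial markers EPCAM and CDH1 were expressed at group means of 147 to 165 CPM. Among markers too low to be tested, CD14 had the most, with at most 14 counts in a library. The share of counts from the mitochondrial genome was 9.88 to 10.7% in PBS libraries and 8.23 to 9.70% in SCF libraries.

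Sequence before the transcription starts is shown first, because 4 of the genes hold a short site there of the kind that ATF and JUN dimers bind. RefSeq starts (GRCh38.p14) were found for 5 of the 6 genes, 7 starts in all, and the 250 bases before each were searched on both strands. The sequences used held no start of MAFK, so MAFK was not searched. The search used the AP-1 site TGANTCA, the CRE-like site TGACNTCA, the EGR site GCGTGGG and the CArG box of serum response factor. JUN, JUND, ATF3 and MAFF each held 1 CRE-like site, and JUNB held 1 EGR site in reverse complement. In the following stretches of 30 bases, written 5′ to 3′ on the strand of the gene, the capitals mark the match.
JUN, chr1:58784096-58784125, minus strand: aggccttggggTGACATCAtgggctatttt
ATF3, chr1:212565273-212565302, plus strand: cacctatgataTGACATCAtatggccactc
JUND, chr19:18281804-18281833, minus strand: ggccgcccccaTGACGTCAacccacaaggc
MAFF, chr22:38201929-38201958, plus strand: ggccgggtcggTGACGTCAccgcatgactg
JUNB, chr19:12791363-12791392, plus strand: tcctccccttcCCCACGCtcgaggaggggg
JUN and ATF3 carried the same letters, TGACATCA, and JUND and MAFF the full palindrome TGACGTCA. In GENCODE v44 the stretch of MAFF lies within an exon of a MAFF transcript, and the other 4 lie outside annotated exons. The match began 67 bases before the start in JUN, 123 in ATF3, 200 in JUND and 54 in MAFF. The EGR site of JUNB began 112 bases before its start. For ATF3 and MAFF this holds for the first of 2 starts, and none of the 4 motifs was found before the second. The AP-1 site and the CArG box were found before none of the 7 starts. Over 35116 promoters of the same length, 6.87% held the CRE-like site, 6.19% the EGR site, 6.57% the AP-1 site and 1.16% the CArG box. A match is a description of the letters and was not tested for binding.

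JUNB and JUND, the most abundant of these genes, are single-exon genes of chromosome 19, and the whole 250 bases before their starts lie outside annotated exons of GENCODE v44. They are shown so that the matches can be read in context, with the same capitals.
JUNB, chr19:12791236-12791485, plus strand: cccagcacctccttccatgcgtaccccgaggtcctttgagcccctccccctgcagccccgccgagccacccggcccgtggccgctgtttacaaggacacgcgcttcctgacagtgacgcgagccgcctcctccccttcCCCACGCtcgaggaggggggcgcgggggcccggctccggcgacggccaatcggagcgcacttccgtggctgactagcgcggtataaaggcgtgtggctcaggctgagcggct
JUND, chr19:18281623-18281872, minus strand: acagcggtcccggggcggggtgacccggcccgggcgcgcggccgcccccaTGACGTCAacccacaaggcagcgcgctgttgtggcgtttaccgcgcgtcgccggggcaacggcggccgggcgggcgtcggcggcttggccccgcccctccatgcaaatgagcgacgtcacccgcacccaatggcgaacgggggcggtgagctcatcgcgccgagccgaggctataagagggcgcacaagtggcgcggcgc
G and C made up 70.8% of the JUNB stretch and 74.8% of the JUND stretch, against 62.0% for JUN and 49.2% for the first start of ATF3.

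**Figure D1:**
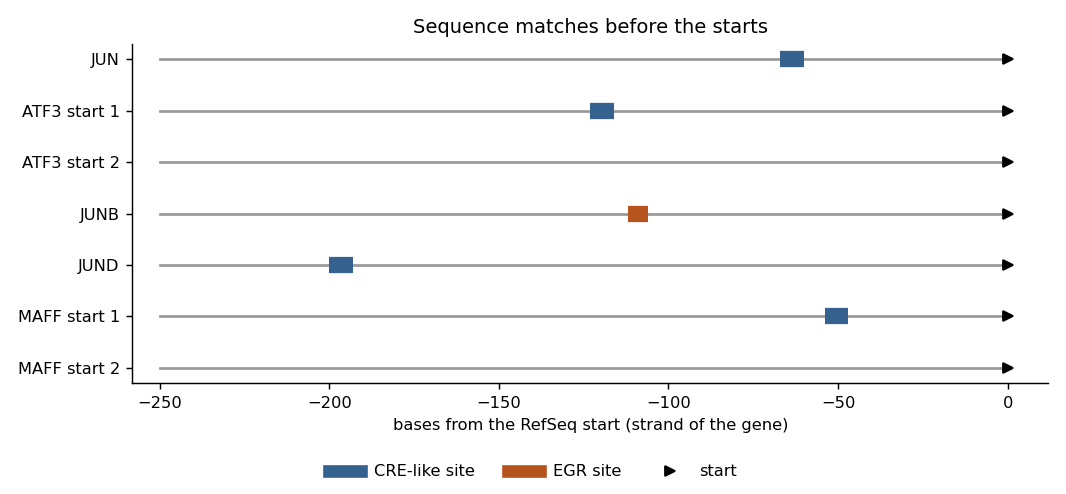
Position of matches to the CRE-like site (blue) and the EGR site (orange) in the 250 bases before each RefSeq start; the x axis gives bases from the start on the strand of the gene, and each row is 1 start. Matches lie between 54 and 200 bases before the start, and the second starts of ATF3 and MAFF hold none. MAFK was not searched.

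The genes spanned a wide range of expression. Per kilobase of the MANE transcript, JUNB was highest in every group, at 150 ± 8.32 CPM per kb (SD, n = 3) in sgControl PBS cells and 236 ± 17.0 in sgControl SCF cells. JUND followed at 61.9 ± 6.35 and 78.6 ± 22.9, and JUN at 7.18 ± 3.56 and 9.31 ± 3.58. JUNB thus contributed 64.0 to 77.8% of the JUN family level per length in each of 12 libraries, JUND 19.9 to 31.0% and JUN 2.08 to 5.05%. ATF3 (5.05 ± 1.29 in sgControl PBS) and MAFK (4.04 ± 0.821) had overlapping ranges in all 4 groups, and ATF3 also overlapped JUN in both PBS groups. MAFF was lowest, at 0.867 ± 0.123 in sgControl PBS and 1.49 ± 0.0951 in sgControl SCF cells, and did not overlap its neighbour in any group. All other neighbours in this order were separate in each group. In bulk RNA, fewer cells expressing a gene and less RNA per cell cannot be told apart.

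JUNB, an AP-1 subunit that can restrain JUN activity, rose with SCF under both guides. In sgControl cells its level was 261, 291 and 272 CPM after PBS and 442, 456 and 397 CPM after SCF. Under the EGR1 guide it was 285, 255 and 252 CPM after PBS and 411, 449 and 442 CPM after SCF. Every SCF library was above every PBS library, and the 2 guide groups overlapped under each treatment. The log2 fold change was 0.65 ± 0.0676 (SE) in sgControl cells (edgeR adjusted p = 0.000345) and 0.72 ± 0.0677 in sgEGR1 cells (adjusted p = 0.000188), or 1.57-fold and 1.64-fold. Averaged over both guides, the change was 0.68 (95% interval 0.58 to 0.79, adjusted p = 6.04e-06), and an exact two-sided permutation test of treatment within guide gave p = 0.005, the smallest its 400 arrangements allow. JUNB was called in every setting tried. Exons of HOOK2 on the opposite strand overlap those of JUNB, and although the libraries kept strand, whether the counting used it is not given in the sources used here. HOOK2 had 3391 counts over all 12 libraries, against 6701 to 14150 counts of JUNB in each.

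JUND, the subunit most steadily expressed in resting cells of many types, did not pass the test in either guide group. Its level in sgControl cells was 133, 117 and 109 CPM after PBS and 195, 153 and 107 CPM after SCF. In sgEGR1 cells it was 138, 92.6 and 103 CPM after PBS and 194, 150 and 155 CPM after SCF. SCF replicate 3 of sgControl lay below all 3 PBS libraries of that guide, whereas in sgEGR1 cells the treatments did not overlap. The log2 fold change was 0.34 (95% interval -0.09 to 0.77, edgeR adjusted p = 0.486) in sgControl cells and 0.58 (0.15 to 1.02, adjusted p = 0.166) in sgEGR1 cells. The average of both was 0.46 (0.16 to 0.77, adjusted p = 0.0611), and it passed when sgControl SCF replicate 3 was left out (adjusted p = 0.0136) or sgEGR1 PBS replicate 1 (adjusted p = 0.0271).

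JUN, the founding member of the family and a target of its own protein through CRE-like sites, showed a larger spread between replicates than between treatments. In sgControl cells it was at 36.6, 15.2 and 18.3 CPM after PBS and 43.3, 26.8 and 20.8 CPM after SCF. The sgEGR1 libraries held 36.7, 13.0 and 14.0 CPM after PBS and 43.3, 25.4 and 26.9 CPM after SCF. Replicate 1 was highest in each of the 4 groups, and PBS replicate 1 exceeded SCF replicates 2 and 3 under both guides, so the treatments overlapped. The log2 fold change was 0.37 (95% interval -0.57 to 1.32, edgeR adjusted p = 0.802) in sgControl cells and 0.60 (-0.36 to 1.55, adjusted p = 0.597) in sgEGR1 cells. These values moved with replicate 1: in sgControl cells the change was 0.86 without PBS replicate 1 and 0.026 without SCF replicate 1, and in sgEGR1 cells 1.24 and 0.32, with none called. The coefficient of variation within a group was 31.2 to 63.1% for JUN, against 4.60 to 7.19% for JUNB.

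ATF3 was the only one of the 6 with lower means after SCF, and it did not pass the test. Its level in sgControl cells was 12.7, 8.11 and 8.61 CPM after PBS and 10.2, 7.83 and 7.13 CPM after SCF. Under the EGR1 guide it was 13.6, 7.04 and 7.19 CPM after PBS and 12.7, 6.90 and 5.56 CPM after SCF. Replicate 1 was again highest in every group, and the treatments overlapped under both guides. The log2 fold change was -0.23 (95% interval -0.94 to 0.48, edgeR adjusted p = 0.854) in sgControl cells and -0.14 (-0.86 to 0.57, adjusted p = 0.911) in sgEGR1 cells. Its sign turned when 1 library was left out: to 0.0076 in sgControl cells without PBS replicate 1, and in sgEGR1 cells to 0.24 without PBS replicate 1 and 0.09 without SCF replicate 3. Leaving out replicate 1 of a single treatment makes the treatments unequal in replicate 1, in which ATF3 was 1.69-fold higher. The turn without SCF replicate 3 is not of this kind, and the cause of the turns was not tested.

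**Figure D2:**
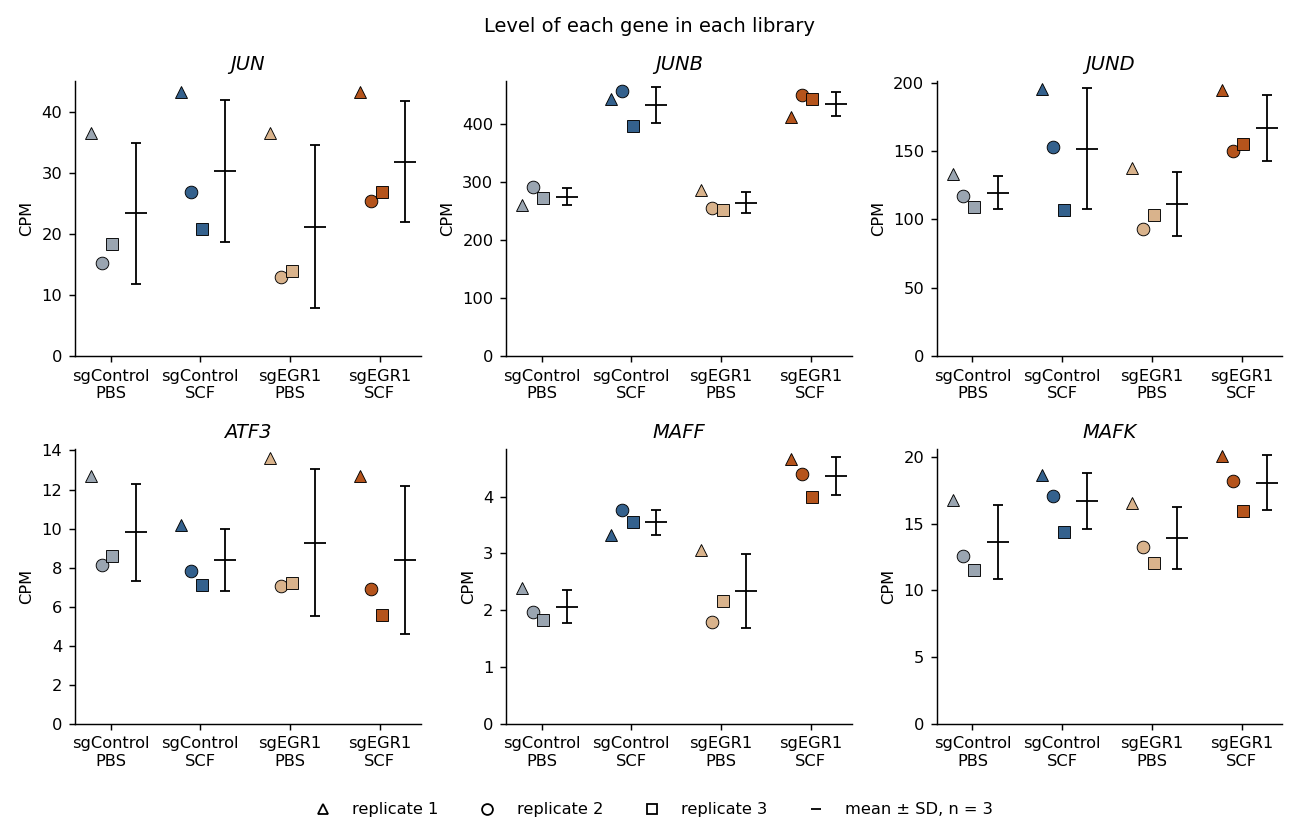
Level of each gene in CPM (y axes from 0) in the 4 groups of 3 libraries; triangles, circles and squares are replicates 1, 2 and 3, and black bars give the mean ± SD. JUNB and MAFF separate by treatment under both guides, whereas replicate 1 is highest in every group for JUN, JUND, ATF3 and MAFK. The shares of all tested genes that do so were not counted.

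MAFF, the least abundant small MAF gene here, had the highest estimated fold change of the 6 under both guides, although its difference from JUNB was not tested. It was at 2.38, 1.97 and 1.82 CPM after PBS and 3.32, 3.77 and 3.55 CPM after SCF in sgControl cells. In sgEGR1 cells it was at 3.07, 1.79 and 2.16 CPM after PBS and 4.66, 4.40 and 4.00 CPM after SCF. The treatments did not overlap under either guide, and each library held 47 to 135 counts of the gene. MAFF rose in sgEGR1 cells (log2 fold change 0.90 ± 0.191, 1.87-fold, edgeR adjusted p = 0.0279). In sgControl cells the change was 0.78 ± 0.193, and its adjusted p of 0.0536 missed the threshold. The call in sgEGR1 cells was lost when any of 5 of its 6 libraries was left out, all except PBS replicate 1 (adjusted p 0.0617 to 0.121). In sgControl cells it was gained without sgEGR1 PBS replicate 1 (adjusted p = 0.0205) or replicate 2 (0.0411). Averaged over both guides the rise was 0.84 (95% interval 0.54 to 1.14, adjusted p = 0.00236), it passed in every setting tried, and the exact permutation test gave p = 0.005, the smallest possible. Exons of PLA2G6 overlap those of MAFF on the opposite strand, with 13674 counts over the 12 libraries, so the counts of MAFF are uncertain.

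MAFK, the small MAF originally found as a partner of NFE2 in erythroid cells, was several times as abundant as MAFF. It was at 16.8, 12.6 and 11.6 CPM after PBS and 18.6, 17.1 and 14.4 CPM after SCF in sgControl cells. The sgEGR1 libraries held 16.5, 13.2 and 12.04 CPM after PBS and 20.1, 18.2 and 15.9 CPM after SCF. PBS replicate 1 lay above the lowest SCF library under both guides, and was the only PBS library to do so. The log2 fold change was 0.29 (95% interval -0.06 to 0.64, edgeR adjusted p = 0.463) in sgControl cells and 0.38 (0.03 to 0.72, adjusted p = 0.285) in sgEGR1 cells. The average was 0.33 (0.09 to 0.58, adjusted p = 0.0940), and it passed without sgControl PBS replicate 1 (adjusted p = 0.0264) or sgEGR1 PBS replicate 1 (0.0432). Exons of TMEM184A overlap MAFK on the opposite strand, with 98 counts over the 12 libraries.

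With 1 coefficient per group, 1 of the 6 genes rose with SCF in sgControl cells (JUNB), beside 2.12% of all tested genes called higher and 2.89% called in either direction. In sgEGR1 cells 2 rose (JUNB and MAFF), beside 1.81% higher and 2.59% in either direction, and in the average of both guides the same 2 genes were called, beside 5.58% and 9.03%. None fell. The median log2 fold change of the 6 genes was 0.36 in sgControl cells and 0.59 in sgEGR1 cells, and that of all tested genes was -0.006 and -0.000485. With sgEGR1 SCF replicate 3 left out, the numbers of the 6 genes called were 1, 1 and 2. In sgEGR1 cells, calls over all genes went from 402 to 209 in that setting. The mitochondrial share of counts and DNAJB1, a heat shock co-chaperone and the only stress gene called of 3 tested, moved with treatment. DNAJB1 rose by a log2 fold change of 0.38 in sgControl cells (edgeR adjusted p = 0.0138) and 0.43 in sgEGR1 cells (adjusted p = 0.00719). Of 16 erythroid markers 2 fell in the average of both guides, SLC4A1 (-0.26, edgeR adjusted p = 0.00856) and EPOR (-0.14, adjusted p = 0.0360). With a term for replicate 1, 8 fell there. Over all genes, the average had 1399 calls in either direction, 865 of them higher, and 2868 with that term, 1584 of them higher. The part of the mitochondrial share, DNAJB1 and the erythroid markers in the results was not tested.

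Replicate 1 differed from replicates 2 and 3 for 4 of the 6 genes, beside 13.1% of all tested genes called higher in it. JUN was 2.04-fold higher in replicate 1 (log2 difference 1.03 ± 0.0967, edgeR adjusted p = 7.36e-06), and its 4 replicate 1 libraries, at 36.6 to 43.3 CPM, were above the other 8, at 13.0 to 26.9 CPM. ATF3 was 1.69-fold higher (0.76 ± 0.0934, adjusted p = 7.00e-05), with 10.2 to 13.6 CPM in replicate 1 and 5.56 to 8.61 CPM in the others. JUND was 1.34-fold higher (0.42 ± 0.0774, adjusted p = 0.00146) and MAFK 1.26-fold (0.33 ± 0.0656, adjusted p = 0.00239). All 4 genes were highest in replicate 1 in 4 of 4 groups, and the 4 calls held when any library was left out. The share of all tested genes with replicate 1 highest in every group was not counted. For JUNB the difference was 0.0008 (95% interval -0.10 to 0.10, adjusted p = 0.993), and for MAFF 0.23 (-0.04 to 0.50, adjusted p = 0.201). FOS, the classic partner of JUN, was 2.96 log2 units higher in replicate 1 (adjusted p = 1.03e-07). The labels give no day or batch for the number. ITGA2B was lower in replicate 1 (log2 difference -0.93, adjusted p = 0.000103), with a summed level of the 5 megakaryocyte markers of 12.1 to 16.4 CPM in replicate 1 and 20.8 to 35.6 CPM in the others, while PF4, PPBP and GP9 were at 0. Of 16 erythroid markers 7 were lower in replicate 1 and 1 was higher, beside 26.6% of all tested genes called in either direction. Among those lower in replicate 1 were HBA1 (-0.25, edgeR adjusted p = 0.000153) and AHSP (-0.22, adjusted p = 0.00442). The epithelial marker EPCAM was lower by a log2 difference of -0.20 (adjusted p = 0.000568). HSPA8 (0.12, adjusted p = 0.00255) and DNAJB1 (0.13, adjusted p = 0.00876) were higher in it. Their part in the result was not tested.

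**Figure D3:**
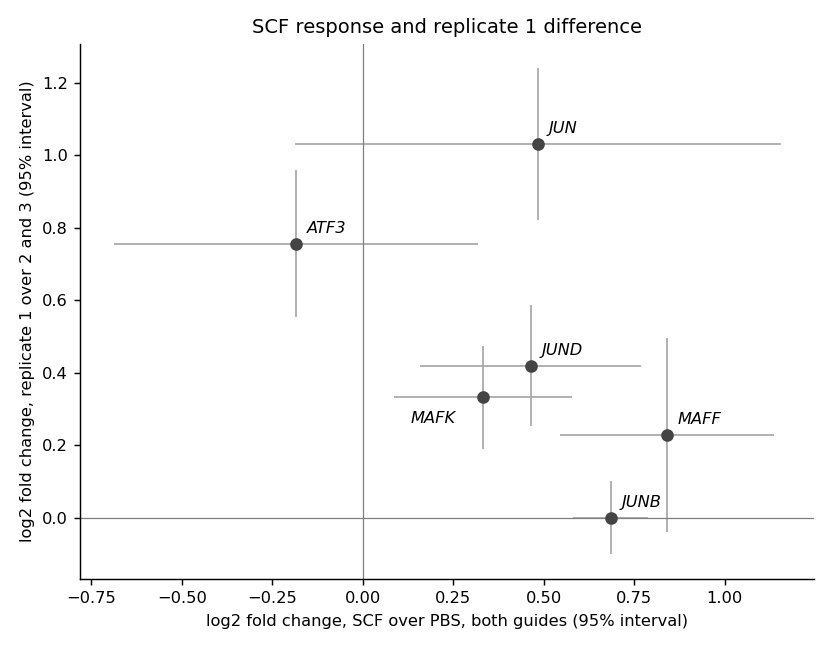
SCF response averaged over both guides (x axis, log2 fold change) against the difference between replicate 1 and replicates 2 and 3 (y axis, log2 fold change) for each gene, with 95% intervals from edgeR. JUNB (0.68 and 0.0008) and MAFF lie to the right near 0 on the y axis, and JUN (1.03) and ATF3 (0.76) are highest on it.

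Because replicate 1 stood apart, the SCF response was fitted again with a term for replicate 1. Here 2 of the 6 genes rose in sgControl cells (JUNB and MAFF, beside 5.28% of all genes called higher), and 5 rose in sgEGR1 cells and in the average, all except ATF3 (beside 5.04% and 10.2%). In sgControl cells the adjusted p of MAFF was 0.0111, while JUN (0.0827), JUND (0.0805) and MAFK (0.0579) did not pass. With all 3 replicate numbers as a block MAFK was called there as well (log2 fold change 0.30, edgeR adjusted p = 0.0258). In sgEGR1 cells the log2 fold change was 0.69 for JUN (edgeR adjusted p = 0.00725), 0.59 for JUND (0.00389) and 0.38 for MAFK (0.0184). In the average it was 0.55 for JUN (95% interval 0.34 to 0.75, adjusted p = 0.00137), 0.46 for JUND (0.30 to 0.62, adjusted p = 0.000862) and 0.34 for MAFK (0.20 to 0.48, adjusted p = 0.00210). ATF3 had a log2 fold change of -0.18 there (-0.38 to 0.01, adjusted p = 0.191). Leaving out each library was added to this fit after seeing the data, and the 5 calls of the average held each time. In sgEGR1 cells, 4 of the 5 were left without PBS replicate 3 or SCF replicate 2, in both cases through MAFK (adjusted p = 0.0876 and 0.0766). In sgControl cells a call was gained for JUND without sgControl SCF replicate 3 (adjusted p = 0.000715), for JUN without sgEGR1 PBS replicate 1 (0.0358) and for MAFK without sgEGR1 SCF replicate 2 (0.0482).

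**Figure D4:**
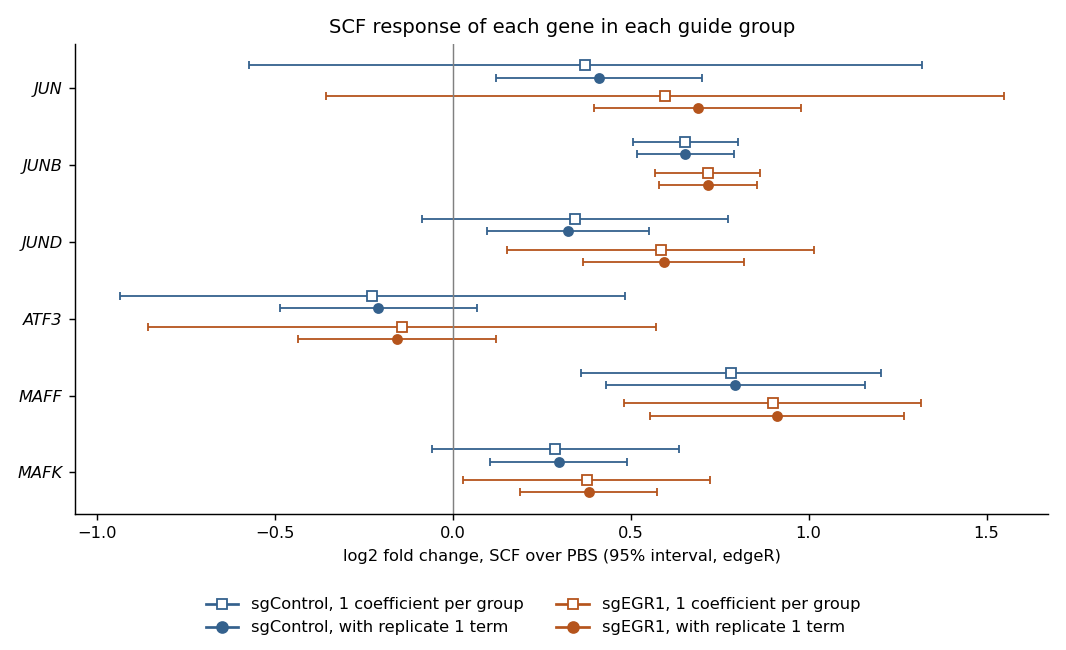
SCF response of each gene (x axis, log2 fold change of SCF over PBS with 95% interval from edgeR) in sgControl (blue) and sgEGR1 (orange) cells; open squares are the fit with 1 coefficient per group and filled circles add a replicate 1 term. The term shortens the intervals of JUN, JUND, ATF3 and MAFK most, and moves no point across 0.

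The ratio of SCF to PBS was also taken within replicate 1 (1 library a group) and within replicates 2 and 3 (2 libraries a group). For JUN it was 1.18 in replicate 1 under both guides, and 1.42 in sgControl and 1.94 in sgEGR1 cells in replicates 2 and 3. For MAFF it was 1.39 and 1.52 in replicate 1, and 1.93 and 2.13 in the others. JUNB stayed between 1.44 and 1.76, JUND between 1.15 and 1.56, and MAFK between 1.11 and 1.35 in the 4 sets. ATF3 was between 0.804 and 0.932. In each set every SCF library was above every PBS library for JUN, JUNB, MAFF and MAFK, and for JUND in all sets but replicates 2 and 3 of sgControl. For ATF3 every SCF library was below every PBS library in each set. Of all 15492 tested genes, 9.86% were separated upward in this way in all 4 sets and 7.75% downward. A term for a different SCF response in replicate 1, also added after seeing the data, gave -0.49 for JUN in edgeR (95% interval -0.81 to -0.16) and -0.48 for MAFF (-0.95 to 0.00108), and neither passed over all genes (adjusted p = 1). For FOS the same term was 1.12 (0.75 to 1.49, adjusted p = 0.106), opposite in sign, and it did not pass either. Of all genes, 0.0129% passed this test.

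No difference between the guides passed the test for any of the 6 genes. After PBS and after SCF, 0 of the 6 were called between sgEGR1 and sgControl, beside 0% of all genes in edgeR. At an unadjusted p under 0.05 there were 715 and 361 genes, none of them among the 6. In this fit EGR1 itself was not called either, at means of 1.38 CPM in sgEGR1 and 8.10 CPM in sgControl cells after PBS. The 0 calls therefore do not show that the 6 genes were unchanged. Blocking on the replicate number called 2 and 2 genes and DESeq2 20 and 5, none of them among the 6. Leaving out sgEGR1 SCF replicate 3 called 1 gene after PBS and 2 after SCF, again none of the 6. The difference after PBS was -0.15 for JUN (95% interval -1.11 to 0.81), -0.06 for JUNB (-0.20 to 0.09), -0.11 for JUND (-0.54 to 0.33) and -0.08 for ATF3 (-0.80 to 0.63). For MAFF it was 0.18 (-0.25 to 0.61) and for MAFK 0.03 (-0.33 to 0.38). After SCF the largest difference was that of MAFF, at 0.30 (-0.11 to 0.70), where the 3 sgEGR1 libraries were all above the 3 sgControl libraries. An exact permutation test of 3 against 3 cannot go below 0.1, which is what it gave. The SCF response in sgEGR1 minus that in sgControl cells was 0.22 for JUN (-1.12 to 1.57), 0.06 for JUNB (-0.14 to 0.27), 0.24 for JUND (-0.37 to 0.85), 0.08 for ATF3 (-0.93 to 1.09), 0.12 for MAFF (-0.47 to 0.71) and 0.09 for MAFK (-0.40 to 0.58). None of these passed, beside 0% of all genes, while 306 genes had an unadjusted p below 0.05 and DESeq2 called 4, none of the 6. With the replicate 1 term this difference was 0.28 for JUN (-0.13 to 0.69) and 0.27 for JUND (-0.05 to 0.59). For JUNB it was 0.06 (-0.13 to 0.26), and for ATF3 0.05 (-0.34 to 0.45). For MAFF it was 0.12 (-0.39 to 0.63), and for MAFK 0.08 (-0.19 to 0.35). None passed there either. With 1 coefficient per group, the interval was narrowest for JUNB, where it spans a response in sgEGR1 cells of 0.905 to 1.21 times that in sgControl cells. This includes sgEGR1 SCF replicate 3, where EGR1 was at 204 CPM. With any 1 library left out, the difference for JUNB was 0.0075 to 0.12.

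**Figure D5:**
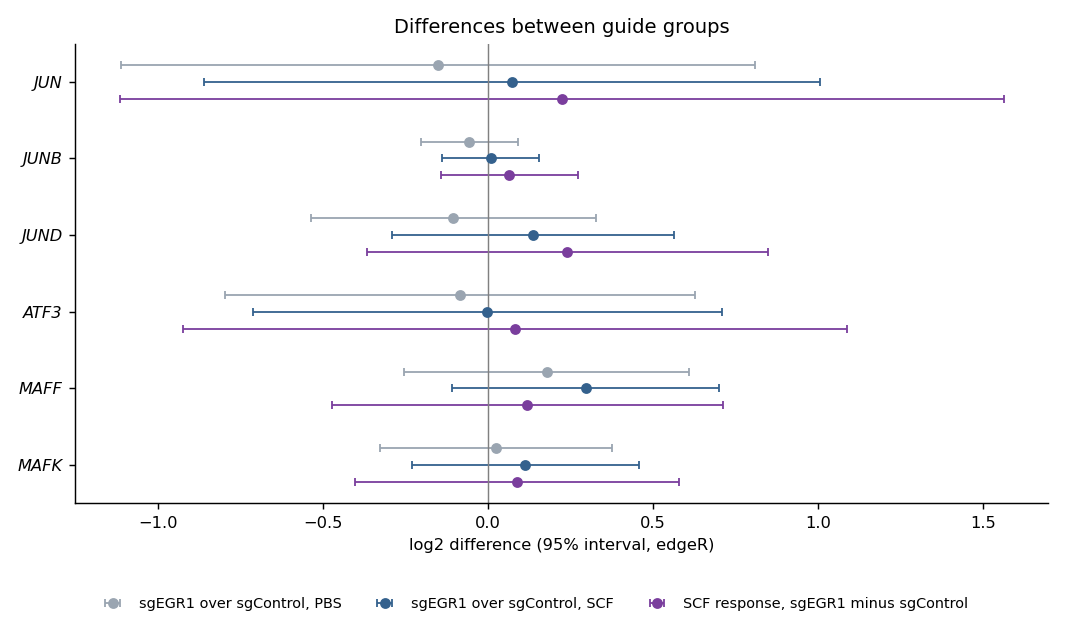
Differences between guide groups for each gene on the log2 scale (x axis, 95% intervals from edgeR): sgEGR1 over sgControl after PBS (grey), after SCF (blue), and the SCF response in sgEGR1 minus that in sgControl cells (purple). All 18 intervals include 0, and those of JUNB are the narrowest.

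Among 11 dimer partners of JUN and FOS proteins, 7 were tested, and 3 rose in each guide group. FOSL1, a FOS protein without a strong activation domain, went from 2.31, 2.44 and 1.98 CPM to 16.01, 15.4 and 15.4 CPM in sgControl cells (log2 fold change 2.80, edgeR adjusted p = 9.57e-07). FOSB went from 13.5, 6.10 and 7.25 CPM to 74.7, 62.8 and 47.2 CPM (2.77, adjusted p = 0.00108). In sgEGR1 cells the changes were 3.09 for FOSL1 (adjusted p = 2.92e-07) and 3.30 for FOSB (adjusted p = 0.000468). ATF4, the factor of the integrated stress response, rose by 0.41 and 0.40 in the 2 guide groups (adjusted p = 0.00173 and 0.00183). FOS was at 21.5, 5.24 and 5.20 CPM after PBS and 146, 15.5 and 12.01 CPM after SCF in sgControl cells. Its log2 fold change of 2.44 did not pass (adjusted p = 0.380), nor did 2.93 in sgEGR1 cells (adjusted p = 0.278), and its replicate 1 exceeded the other replicates in each group. FOS was higher after SCF than after PBS in replicate 1 and in replicates 2 and 3 under both guides. With the replicate 1 term, added for these lists after seeing the data, FOS passed under both guides, with log2 fold changes of 2.07 (sgControl, edgeR adjusted p = 0.000170) and 2.68 (sgEGR1, adjusted p = 3.63e-05). ATF7, which pairs with JUN, fell in sgEGR1 cells (-0.24, adjusted p = 0.0189) and had -0.12 in sgControl cells (adjusted p = 0.244). In the average of both guides 4 of the 7 rose and 1 fell, FOSL2 being the added gene (0.54, adjusted p = 0.0252), named after its values were seen. With the replicate 1 term 5 rose and 1 fell there. BATF3 had at most 6 counts in a library and was not tested. Per kilobase after SCF in sgControl cells, FOSB (16.3 ± 3.65 CPM per kb) and FOSL1 (9.17 ± 0.208) overlapped JUN (9.31 ± 3.58), and JUNB exceeded each of them.

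Of 7 small MAF and CNC partner genes, 6 were tested and MAFG alone rose in each guide group. MAFG, the most widely expressed small MAF, was at 75.5, 77.6 and 71.5 CPM after PBS and 97.3, 95.8 and 91.7 CPM after SCF in sgControl cells (log2 fold change 0.34, edgeR adjusted p = 0.00102). In sgEGR1 cells it rose by 0.40 (adjusted p = 0.000417). Per length MAFG made up 70.5 to 77.1% of the 3 small MAF genes in the 12 libraries, MAFK 17.8 to 23.8% and MAFF 3.82 to 7.14%. NFE2, the erythroid partner of MAFK and MAFG, was abundant at 144 ± 12.2 CPM per kb in sgControl PBS cells, and its SCF change was 0.05 (95% interval -0.11 to 0.22) in sgControl and 0.04 (-0.13 to 0.20) in sgEGR1 cells. NFE2L2, the regulator of the antioxidant response, had a change of 0.26 (adjusted p = 0.343) and 0.33 (adjusted p = 0.186). BACH1, the haem-sensitive repressor, had -0.06 in each (adjusted p = 0.762 and 0.712). Of 4 large MAF genes 3 were tested and 0 were called in either guide group. In the average, 2 genes of the small MAF and partner list rose, MAFG and NFE2L2 (0.29, adjusted p = 0.0456), and with the replicate 1 term 2 rose in each guide group. Of the large MAF genes MAFA fell in the average (-0.55, adjusted p = 0.0350), and 2 of 3 fell there with the replicate 1 term; MAFA was named after its values were seen.

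Further genes that act with JUN or ATF3 were mostly not called. All 9 CREB and ATF relatives were tested: CEBPG, a leucine zipper partner of ATF4, rose in sgControl cells (0.80, edgeR adjusted p = 0.0328) and had 0.68 in sgEGR1 cells (adjusted p = 0.0658). ATF5 rose in sgEGR1 cells (0.27, adjusted p = 0.0352) and had 0.17 in sgControl cells (adjusted p = 0.193). ATF6B was also called in sgEGR1 cells, on 0 counts in each of the 3 PBS libraries and 0.587, 0.694 and 0.812 CPM in the SCF libraries. Of 8 genes of the JUN kinase cascade 7 were tested and 1 was called in a single guide group, the kinase gene MAP3K1, which fell in sgEGR1 cells (-0.30, adjusted p = 0.0250) and had -0.15 in sgControl cells (adjusted p = 0.266). Of 8 regulators of JUN, all tested, ITCH, a ubiquitin ligase that targets JUN proteins, fell in sgEGR1 cells (-0.21, adjusted p = 0.0286) and had -0.12 in sgControl cells (adjusted p = 0.229). In the average, 2 of the 9 CREB and ATF relatives rose (CEBPG and ATF5), and of the regulators ITCH fell. In the kinase cascade MAPK8, a JUN kinase gene, rose there (0.16, adjusted p = 0.0339), and MAP3K1 and MAP2K7 fell (-0.23 and -0.14, adjusted p = 0.00664 and 0.0366); MAPK8 and MAP2K7 were named after their values were seen. No gene of these lists passed the test of a difference in SCF response between guides.

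Correlations of log2 CPM across the 12 libraries are given as a description, since the libraries share the SCF treatment and the replicate 1 split. JUN correlated most with MAFK (Pearson r = 0.88), JUND (0.87) and MAFF (0.67), and after removal of group means most with ATF3 (0.91). JUNB correlated most with MAFF (0.88), and with ATF3 at -0.22. Over 11178 genes of at least 2 CPM on average, those most like each gene were UBE2G2 and UCA1 for JUN (r = 0.98 and 0.97), ING2 and IER2 for JUNB (both 0.99), and SCAMP4 and REEP3 for JUND (0.97 and 0.95). They were DST and FSD1L for ATF3 (0.96 and 0.95), RHOB and H3-3B for MAFF (both 0.96), and AVPI1 and SLBP for MAFK (0.96 and 0.95). With group means removed, UBE2G2 kept r = 0.97 with JUN, whereas IER2, an immediate early gene, had 0.72 with JUNB.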

How the data were processed

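RNA-seq was performed on 12 libraries of HUDEP-2 cells, 3 biological replicates per group per the methods of the study. The authors made the deposited estimated counts per gene with StringTie from HISAT alignments to hg38, and the values were whole numbers and not scaled. Libraries were strand-specific per the methods of the study. Annotation release and use of strand in counting are not given in the sources used here. Columns coded SG2 were taken as sgEGR1, the only construct in the labels beside the scrambled control. Columns named NoSCF were taken as PBS and the others as SCF, from these names; library names in the labels write a minus sign before SCF for PBS, so that they look like the SCF column names. Of 54628 genes, filterByExpr kept 15492, including all 6 genes described. Tests used the edgeR 4.0.16 quasi-likelihood F test in R 4.3.3 with TMM, all 12 libraries, 1 coefficient per group and Benjamini-Hochberg adjustment over all tested genes (threshold 0.05). P-values measure the spread between these libraries, which may be technical in part. Single genes were also tested by exact permutation of log2 CPM with a prior count of 2. The genes and lists were chosen with earlier results of these data known. All 6 genes were named whatever they showed, as were EGR1, MAFG, FOS, ATF4, NFE2, NFE2L2, BACH1, BATF3, list genes called in either guide group and the 2 genes most like each of the 6. Same-numbered libraries of the 2 guides correlated in their residuals at 0.232, 0.103 and 0.119 after PBS and at 0.269, 0.102 and 0.126 after SCF. Those of the 2 treatments correlated at 0.272, 0.00766 and 0.108 in sgControl cells and at 0.230, 0.0749 and 0.0620 in sgEGR1 cells. Replicate 1 had the highest value each time. The main fit did not use the numbers as pairs. Gene models came from GENCODE v44. The code was tested on simulated counts: of 200 genes changed 2-fold, 128 were recovered for SCF in sgControl cells with 7 false calls among 15178 genes. For the average 166 were recovered with 7 false calls, and for the difference of responses 119 with 10. The simulated libraries had no replicate 1 difference, and changes smaller than 2-fold were not simulated.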

Additional observations from a re-analysis of the deposited data

How the results depend on the processing

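JUNB kept its call and direction for SCF under both guides and in the average with DESeq2 size factors, no filter on low counts, DESeq2 1.42.0, a replicate block, a replicate 1 term with and without sgEGR1 SCF replicate 3, replicates 2 and 3 only, and each library left out, and under both guides with only the groups compared, a setting with no value for the average. The number of the 6 genes called for SCF in sgControl cells, in sgEGR1 cells and in the average was 1, 2 and 2. It was 2, 2 and 4 with DESeq2, 3, 5 and 5 with a replicate block, 2, 5 and 5 with a replicate 1 term whether or not sgEGR1 SCF replicate 3 was left out, and 2, 4 and 5 with replicates 2 and 3 only. With only the groups compared, 1 was called in sgEGR1 cells. With 1 library left out the ranges were 1 to 2, 1 to 2 and 2 to 4. Within a guide, same-numbered libraries correlated in their residuals at 0.272 and 0.230 for replicate 1 and at 0.00766 to 0.108 for the others. Among libraries of other groups, 9 of 12 correlated best with one of their own number. The cause of these changes was not tested. Over all genes, 448, 402 and 1399 calls became 759, 773 and 1791 with DESeq2, 1184, 1235 and 2799 with a replicate block, 1289, 1326 and 2868 with a replicate 1 term, 1186, 778 and 2442 with that term and without sgEGR1 SCF replicate 3, 575, 690 and 1748 in replicates 2 and 3, and 192 and 250 with only the groups compared. Leaving out 1 library gave 194 to 448, 176 to 428 and 1032 to 1408. Between guides 0 genes became 20 and 5 (after PBS and after SCF) with DESeq2, 2 and 2 with the block, 4 and 2 with the replicate 1 term, and 51 and 38 with that term and without sgEGR1 SCF replicate 3, and 0 of the 6 were called in each.

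Directions turned only for differences that did not pass. Without sgEGR1 SCF replicate 3 and with a replicate 1 term, the guide difference after SCF was -0.00915 for JUNB and 0.0635 for ATF3. In replicates 2 and 3 the difference of responses was -0.0354 for ATF3, and with no filter the replicate 1 difference of JUNB was -0.00106. With 1 library left out, the SCF response of ATF3 ranged from -0.39 to 0.0076 in sgControl cells, -0.57 to 0.24 in sgEGR1 cells and -0.40 to 0.0060 in the average. The replicate 1 difference of JUNB ranged from -0.0577 to 0.0400. The guide difference after PBS ranged from -0.47 to 0.15 for ATF3, -0.80 to 0.33 for JUN, -0.29 to 0.0066 for JUND, -0.0620 to 0.33 for MAFF and -0.12 to 0.20 for MAFK. After SCF it ranged from -0.43 to 0.22 for ATF3, -0.21 to 0.42 for JUN, -0.0488 to 0.0457 for JUNB and -0.0618 to 0.36 for JUND. The difference of responses ranged from -0.34 to 0.46 for ATF3, -0.26 to 0.87 for JUN, -0.0405 to 0.35 for MAFF and -0.0910 to 0.23 for MAFK.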
